A study of Mus musculus with 8 samples.

Results

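The enzymes of central carbon metabolism were examined in regulatory T (Treg) cells, the Foxp3-expressing CD4 T cells that restrain immune responses. The set holds 36 genes, taken by name as enzymes of glycolysis, pyruvate entry, the pentose phosphate pathway and the citric acid (TCA) cycle, out of 36811 gene models measured. Treg cells positive for Foxp3-GFP were sorted from spleen by Bach2-RFP fluorescence into a LO and a HI population, with 4 libraries each, F1 and F2 from females and M1 and M2 from males. LO and HI libraries carry the same labels for strain (C57BL/6), age (12 to 13 weeks) and genotype (Foxp3EGFP-DTR Bach2tdRFP/+), so each group carries the red reporter on 1 Bach2 allele. Bach2 itself, a transcriptional repressor, had 0.691 ± 0.187 FPKM in LO and 15.6 ± 5.56 FPKM in HI cells (SD, n = 4 each), with HI M2 the lowest HI library at 8.62. FPKM are fragments scaled by transcript length and library size, so levels can be set side by side between genes, but only roughly. Levels of genes with similar pseudogenes, such as Gapdh and Mpc1, are less certain.

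Glycolysis splits glucose into pyruvate with a small yield of ATP. Lactate dehydrogenase can turn pyruvate into lactate, while the mitochondrial pyruvate carrier and the pyruvate dehydrogenase complex pass it to the TCA cycle as acetyl-CoA. The pentose phosphate pathway branches off glycolysis to make NADPH and ribose for nucleotides. Activated T cells are known to raise glycolysis, and in Treg cells the balance between glycolysis and mitochondrial oxidation is known to bear on growth and suppression.

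Most of these enzymes did not differ detectably between LO and HI cells. Of the 36 genes, 35 passed the filter of at least 1 FPKM in at least 4 libraries, and Hk2 did not. Tpi1 and Idh3a rose in LO cells, Suclg1 fell, and 32 did not pass (limma, Benjamini-Hochberg adjusted p below 0.05 over all 11260 genes tested). The 3 called genes are 8.57% of the 35, against 8.29% of all genes tested, so the share is near the background. In single directions, 4.65% of all genes were higher and 3.64% lower. At an unadjusted p below 0.05, 7 of the 35 (20%) passed, against 20.9% of all genes tested, again near the background. The median log2 difference, LO minus HI, was 0.099 over the 35 and -0.026 over all genes tested. Of the 32 genes that did not pass, 26 had a 95% interval lying wholly within a 2-fold change either way. The intervals of Hk1, Mpc1, Pdhb, Pdk1, Rpia and Idh1 reached beyond 2-fold on 1 side.

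**Figure D1:**
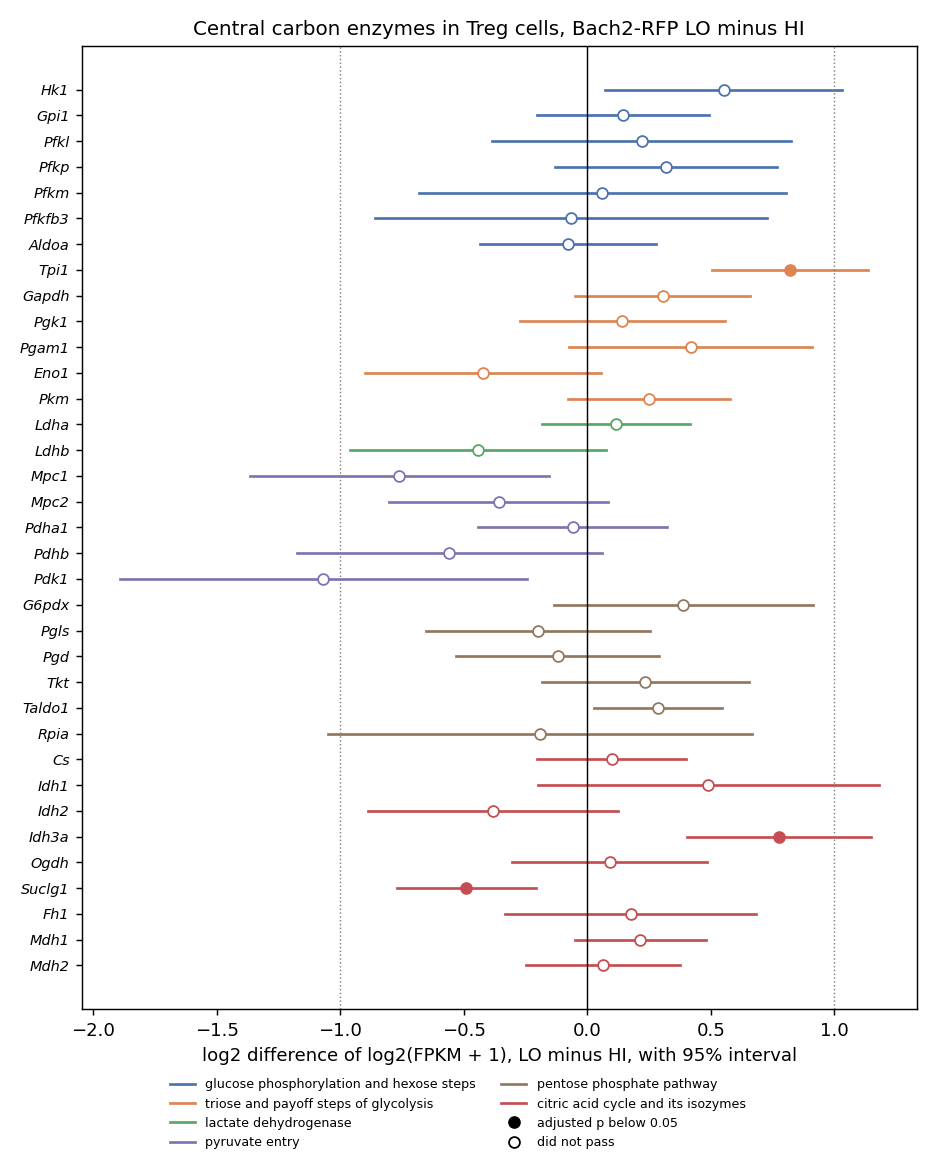
Log2 difference of log2(FPKM + 1), LO minus HI, for the 35 tested enzymes, grouped by branch and coloured by it, with 95% intervals. Filled points mark Tpi1, Idh3a and Suclg1, dotted lines mark a 2-fold change, and all 5 genes of pyruvate entry lie left of 0.

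The FPKM of all 36 genes summed to 7338 ± 925 in LO and 7345 ± 522 in HI cells (SD, n = 4 each). For the 8 genes of the hexose steps the sum was 1306 ± 243 in LO and 1216 ± 98.0 in HI libraries. For the 6 genes from the triose phosphates to pyruvate it was 1948 ± 419 in LO and 2097 ± 202 in HI. The groups overlapped in each of these sums. Summed pentose phosphate FPKM was 946 ± 74.7 in LO and 841 ± 67.2 in HI, and summed TCA cycle FPKM 1598 ± 140 in LO and 1517 ± 130.3 in HI, again with overlap. As deposited, only the 5 pyruvate entry genes had sums that did not overlap. They lay at 393 to 443 in LO and 462 to 703 in HI libraries, with HI M2 the lowest of HI. Over all gene models FPKM summed to 1.49e+06 to 1.76e+06 in LO and 1.84e+06 to 2.14e+06 in HI libraries, also without overlap. The branch sums above were not divided by these totals, and which branches stand apart depends on that choice. Divided by them, the pyruvate entry sums would overlap, with HI M2 within the LO range. The sums of the hexose steps, lactate dehydrogenase, pentose phosphate pathway and TCA cycle would then lie higher in every LO library, in part narrowly. These sums are descriptions without a test.

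**Figure D2:**
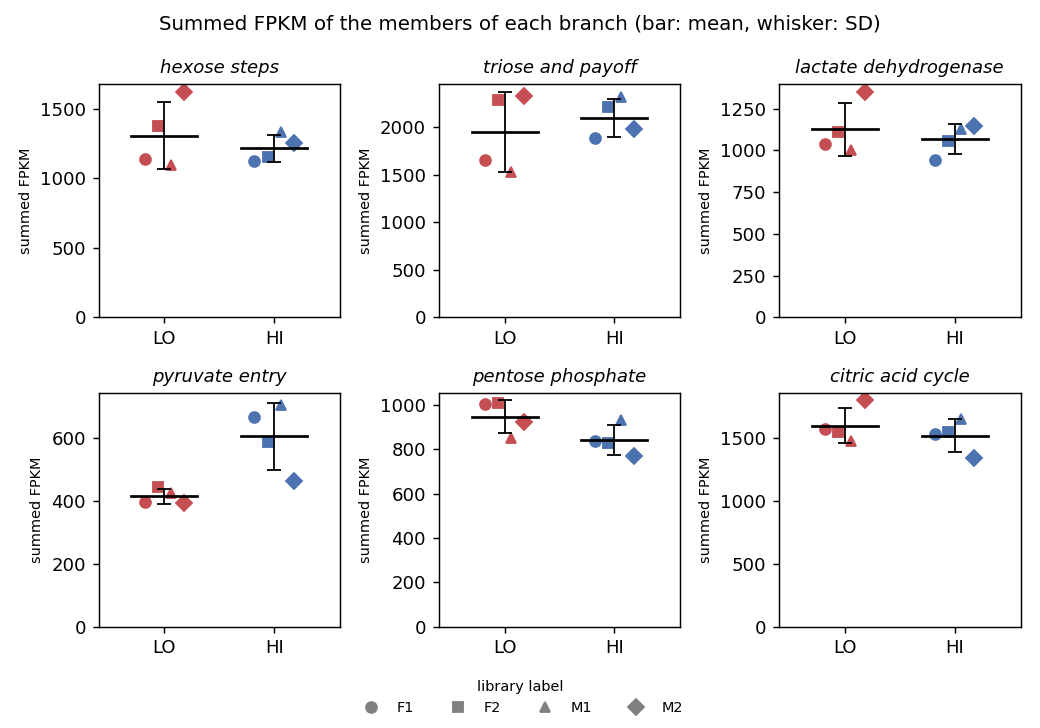
Summed FPKM of the genes of each branch in each library, LO left of HI, with mean and SD, on axes from 0. As deposited, the LO and HI libraries overlap in 5 of the 6 branches and stand apart, at 393 to 443 against 462 to 703, in pyruvate entry. The sums are not divided by the FPKM total of each library, and this pattern would not hold if they were.

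The libraries were checked before single genes were read. Taking HI F1 as 1, relative depth read from the steps between low values was 0.818 to 1 in LO F1, F2 and M1, 5.27 in LO M2, and 0.636 (HI M1) to 1.27 in HI. T cell markers summed to 11074 to 16283 FPKM in LO and 10577 to 11724 in HI libraries, with 0 of 7 called. The 5 Treg markers summed to 1981 to 2985 in LO and 1293 to 1549 in HI libraries, without overlap. Of these, Ctla4, Ikzf2 and Tnfrsf18 rose and Il2ra, the interleukin-2 receptor alpha chain, fell (limma adjusted p = 0.00149), at 22.2 to 34.6 in LO and 69.6 to 88.6 in HI. Foxp3 did not pass, at 10.5 to 19.8 in LO and 13.3 to 15.2 in HI. Summed markers of each other cell type were below the T cell sum, and some single ones were above Foxp3. The 7 B cell markers summed to 70.3 to 105 in LO and 146 to 229 in HI, with 3 lower in LO. The 10 myeloid markers summed to 141 to 363 in LO and 261 to 480 in HI, with 3 lower, and the 8 dendritic cell markers to 271 to 368 in LO and 355 to 577 in HI, with 1 lower. The 5 plasma cell markers summed to 178 to 269 in LO and 123 to 150.2 in HI, with 2 higher. The 6 NK and CD8 markers summed to 34.7 to 64.1 in LO and 71.4 to 86.6 in HI, and the 6 erythroid and platelet markers to 11.2 to 311 in LO and 27.9 to 172 in HI, with none of either list called. Pax5 was at 0 in all 4 LO libraries and at 0 to 3.55 in HI, and Ppbp at 0 in all 8. The 17 cell cycle markers summed to 705 to 1046 in LO and 388 to 506 in HI, and 12 rose. In bulk libraries fewer cells of a kind and less RNA per cell cannot be told apart, and the part of these markers in the values below was not tested.

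The promoter windows of the called genes are shown with 1 of the 2 Ldha windows, picked because it holds motifs the others lack. RefSeq windows of build GRCm38.p6, 250 bases before to 50 after a transcript start, were found for 35 of the 36 genes and not for Idh3a. The windows lie at chr6:124814109-124814408 on the minus strand for Tpi1, at chr6:73248255-73248554 on the plus strand for Suclg1 and at chr7:46845554-46845853 on the plus strand for Ldha. Capitals mark ACGTG, 1 form of the core that hypoxia-inducible factors recognize, and the GC box GGGCGG, each on either strand. Other forms of that core were not searched, so a window without ACGTG may still hold them.
Tpi1: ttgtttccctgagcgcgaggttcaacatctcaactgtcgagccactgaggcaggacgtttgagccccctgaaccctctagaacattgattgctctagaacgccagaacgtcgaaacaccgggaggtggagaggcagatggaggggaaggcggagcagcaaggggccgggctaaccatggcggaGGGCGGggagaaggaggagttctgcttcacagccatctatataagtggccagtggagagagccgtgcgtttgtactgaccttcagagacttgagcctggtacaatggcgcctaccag
Suclg1: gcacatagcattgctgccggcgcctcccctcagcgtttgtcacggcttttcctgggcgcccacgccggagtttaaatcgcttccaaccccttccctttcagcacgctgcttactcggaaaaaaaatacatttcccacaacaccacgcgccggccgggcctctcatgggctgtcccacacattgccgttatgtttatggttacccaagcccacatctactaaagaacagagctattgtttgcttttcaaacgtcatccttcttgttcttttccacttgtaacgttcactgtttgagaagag
Ldha: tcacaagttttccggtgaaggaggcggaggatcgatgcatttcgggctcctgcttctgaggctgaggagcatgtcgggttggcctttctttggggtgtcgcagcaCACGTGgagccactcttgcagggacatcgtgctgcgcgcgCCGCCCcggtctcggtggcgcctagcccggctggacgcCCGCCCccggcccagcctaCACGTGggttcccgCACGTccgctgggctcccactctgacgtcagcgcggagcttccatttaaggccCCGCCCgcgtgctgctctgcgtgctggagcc
ACGTG lies within the E-box CACGTG, a motif of Myc, so these motifs overlap, and the Ldha window shown holds 2 E-boxes and 3 GC boxes. The other Ldha window, at chr7:46846832-46847131 on the plus strand, holds 0 of either and 0 ACGTG. The Tpi1 window holds 1 GC box and no ACGTG, and the Suclg1 window holds neither. Searched on both strands, ACGTG was in 22 of the 55 windows of these genes (40.0%), against 19.6% of all 32851 windows, and the E-box in 6 of 55 (10.9%), against 7.15%. TGACTCA, a motif of AP-1 and Bach factors, was in 1 of 55 (1.82%), against 5.20%. GGGCGG was in 37 of 55 (67.3%), against 35.7%. Windows of these genes had a median GC content of 61.0%, against 52.7% for all windows. Several windows can belong to 1 gene, and some overlap. Such matches describe letters only.

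Among the 7 tested genes of the hexose steps none was called (limma), and 1, Hk1, had an unadjusted p below 0.05. Hexokinases trap glucose in the cell by phosphorylation. Hk1 had 113, 153, 90.1 and 124 FPKM in LO F1, F2, M1 and M2, against 62.7, 71.7, 87.9 and 104 in HI F1, F2, M1 and M2. The groups overlap only through LO M1 and HI M2, and the log2 difference was 0.55 (95% interval 0.072 to 1.03, limma adjusted p = 0.173). Hk2, the isozyme known to be induced on T cell activation, was listed at 0, 1.13, 0.898 and 2.30 in the same LO order and at 0.225, 0.176, 10.9 and 0 in HI. HI M1 thus held most of the Hk2 signal, and Hk1 made up 89.0% or more of hexokinase FPKM in each of the 8 libraries. Gpi1, which converts glucose 6-phosphate to fructose 6-phosphate, had 372 ± 78.0 in LO and 332 ± 19.4 in HI (adjusted p = 0.667).

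Phosphofructokinase, the committed step, was mostly the platelet type Pfkp, at 64.3% to 76.7% of the 3 subunits' FPKM in LO and 63.7% to 77.6% in HI. The liver type Pfkl made up 20.6% to 32.0% in LO and 19.6% to 34.5% in HI, and the muscle type Pfkm no more than 6.81% in any library. Pfkp itself had 167 ± 37.5 FPKM in LO and 133 ± 23.1 in HI (log2 difference 0.32, limma adjusted p = 0.416). Pfkfb3, which makes the activator fructose 2,6-bisphosphate, stood at 11.4 ± 2.87 in LO and 12.7 ± 5.55 in HI. Aldoa, the aldolase and the most abundant gene of these steps, had 474, 606, 487 and 723 FPKM in LO F1, F2, M1 and M2, against 526, 589, 634 and 641 in the HI libraries in that order. The spread in LO spans the whole HI range, and the log2 difference was -0.079 (95% interval -0.44 to 0.28).

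Triosephosphate isomerase, Tpi1 (ENSMUSG00000023456), showed the clearest change of the set. This enzyme interconverts the products of the aldolase step, so that both can go on to pyruvate. Its FPKM was 132, 130.2, 131 and 144 in LO F1, F2, M1 and M2, against 74.9, 74.9, 87.4 and 66.3 in HI F1, F2, M1 and M2. Every LO library lay above every HI library, with LO M2 the highest. The mean was 134 ± 6.59 in LO and 75.9 ± 8.68 in HI, 1.77-fold higher in LO (log2 difference 0.82, SE 0.14, limma adjusted p = 0.0059). The exact permutation test, two-sided, gave p = 0.0286, the smallest that 4 against 4 libraries allow. The log2 difference was 0.69 among libraries numbered 1 (F1 and M1) and 0.95 among those numbered 2 (F2 and M2). The call held under every alternative tried, with adjusted p from 0.00271 to 0.0254.

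Later steps of glycolysis did not pass. Gapdh, the dehydrogenase that makes the pathway's NADH, had 85.1 ± 10.6 FPKM in LO and 68.5 ± 7.50 in HI (limma adjusted p = 0.311). Its level is uncertain: 198 annotated pseudogene models resembled its mRNA at 90% identity or more over at least 200 bases, and the 73 of them in the table held 6.36% of the joint FPKM. Pgk1, a kinase that yields ATP, stood at 94.7 ± 20.1 in LO and 84.5 ± 9.01 in HI. The phosphoglycerate mutase Pgam1 was at 15.2, 15.2, 15.4 and 19.0 in LO and 10.98, 14.4, 11.5 and 10.7 in HI, in the order F1, F2, M1, M2. These groups did not overlap as deposited, by a margin of less than 1 FPKM, and the log2 difference was 0.42 (adjusted p = 0.317). The separation was lost with quantile normalization, with upper quartile scaling and once 3 pseudogene models were added.

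Enolase Eno1 was the most abundant gene from the triose steps on. Its FPKM was 884, 1393, 735 and 1318 in LO F1, F2, M1 and M2, against 1249, 1562, 1569 and 1255 in the HI libraries in that order. LO F1 and LO M1 lay below the whole HI range and LO F2 and LO M2 within it. The log2 difference was -0.42 (95% interval -0.90 to 0.057, limma adjusted p = 0.302), or -0.80 among libraries numbered 1 and -0.047 among those numbered 2. Pkm, pyruvate kinase, stood at 536 ± 85.2 in LO and 448 ± 44.3 in HI (adjusted p = 0.379).

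Neither lactate dehydrogenase subunit was called (limma), and none had an unadjusted p below 0.05. Ldha, the subunit typical of glycolytic tissue, had 987, 1018, 913 and 1251 FPKM in LO F1, F2, M1 and M2, against 857, 937, 994 and 1039.8 in HI F1, F2, M1 and M2. The groups overlap, and the log2 difference of 0.12 had an interval from -0.18 to 0.42. Ldhb, the subunit typical of heart, was at 84.1 ± 21.4 in LO and 113 ± 20.9 in HI (adjusted p = 0.316). Ldha thus made up 90.9% to 94.9% of the pair's FPKM in LO and 88.0% to 90.9% in HI libraries, which meet at LO M1 and HI M2.

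**Figure D3:**
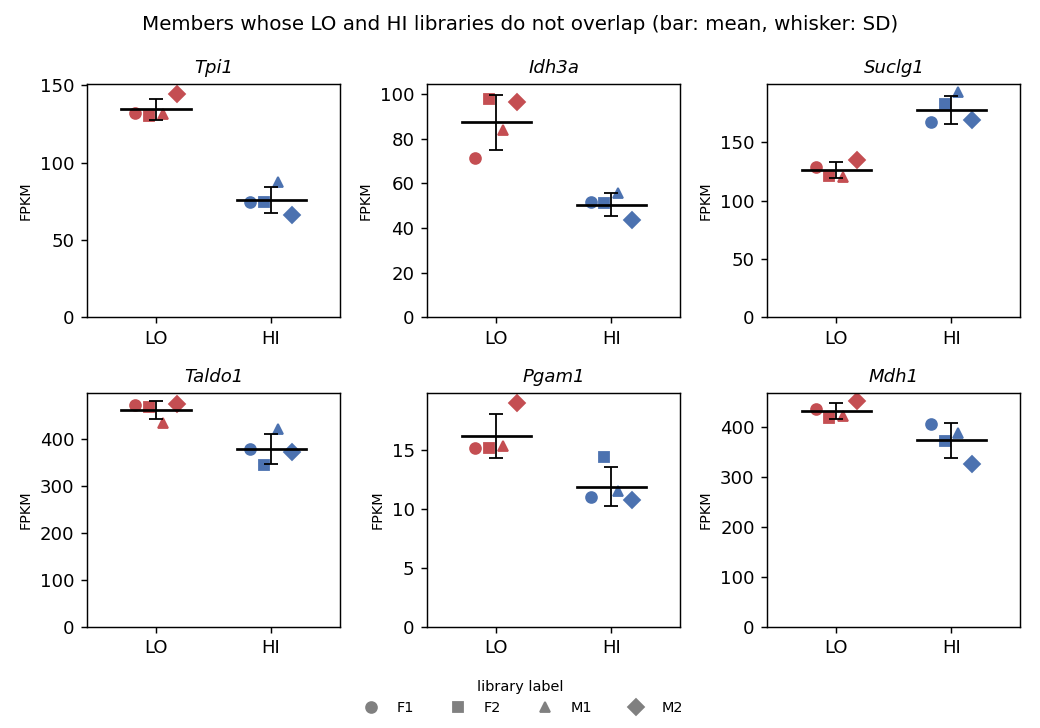
FPKM in each library, LO left of HI, for the 6 enzymes whose groups do not overlap as deposited, with mean and SD, on axes from 0. Tpi1, Idh3a, Taldo1, Pgam1 and Mdh1 are higher and Suclg1 lower in all 4 LO libraries, and only Tpi1, Idh3a and Suclg1 had an adjusted p below 0.05.

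In 6 of the 35 genes (17.1%) the LO and HI libraries did not overlap, 5 of them higher and 1 lower in LO. Over all genes tested this was 15.1%, with 7.90% higher and 7.18% lower. It was 5 genes (14.3%) under quantile normalization, against 15.2% of all genes, and 4 (11.4%) under upper quartile scaling, against 15.4%. Without HI M2, which leaves 3 HI libraries to separate, it was 11 (31.4%), against 19.5% of all genes. That library was singled out with the values in view, and any other single library left out gave 6 to 7. Without both HI M1 and LO M2 it was 9 (25.7%), against 24.8% of all genes, near the background.

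The 5 genes of pyruvate entry were all lower in LO cells in mean, but none passed (limma), and Mpc1 and Pdk1 had an unadjusted p below 0.05. The direction was the same for all 5 under quantile normalization and upper quartile scaling, and Pdha1 turned without LO F2. Other genes of the pyruvate dehydrogenase complex, its kinases and its phosphatases did not share it. Of 7 tested, 4 were higher in LO (Dlat, Dld, Pdk3 and Pdp2) and 3 lower (Pdhx, Pdk2 and Pdp1). Their median log2 difference was 0.085, and 0 were called. Pdk1, a kinase that inactivates pyruvate dehydrogenase, had 35.9, 94.3, 79.9 and 96.6 FPKM in LO F1, F2, M1 and M2, against 179, 179, 199 and 81.8 in HI F1, F2, M1 and M2. HI M2 lay within the LO range and the other 3 HI libraries far above it. The log2 difference was -1.07 (95% interval -1.89 to -0.25, limma adjusted p = 0.122). Without HI M2, the HI library nearest to LO, it was -1.36 and passed (adjusted p = 0.0419). Pdk1 was called under no other setting tried, so this pass rests on leaving out that library. The difference was -1.80 among libraries numbered 1 and -0.34 among those numbered 2.

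Mpc1 and Mpc2 are the subunits of the mitochondrial pyruvate carrier. Mpc1 had 92.0, 57.2, 61.9 and 39.0 FPKM in LO F1, F2, M1 and M2, against 94.3, 99.0, 143 and 80.4 in the HI libraries in that order. Only LO F1 reached into the HI range, and the log2 difference was -0.76 (limma adjusted p = 0.135). The 1 Mpc1 pseudogene model in the table was listed at 10.4 to 22.4 in LO, at 0 in HI F1 and F2, at 71.9 in HI M1 and at 44.7 in HI M2, so its reads may be shared with Mpc1. Mpc2, the most abundant gene of this branch in the mean over all 8 libraries though below Pdk1 in the HI mean, had 118, 113, 116 and 84.9 FPKM in LO and 181, 119, 154 and 108 in HI, in the order F1, F2, M1, M2, which overlap at HI M2. Pdha1 and Pdhb encode the E1 subunits of pyruvate dehydrogenase. Pdhb was at 79.2 ± 29.8 in LO and 110.2 ± 9.12 in HI, with LO F1 the lowest at 40.9, and Pdha1 at 87.4 ± 17.6 in LO and 89.8 ± 3.97 in HI.

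Of the 6 pentose phosphate genes none was called (limma), and Taldo1 had an unadjusted p below 0.05. Taldo1, transaldolase, links the pathway back to glycolysis and was its most abundant gene. Its FPKM was 471, 468, 433 and 474 in LO F1, F2, M1 and M2, against 377, 345, 421 and 372 in HI F1, F2, M1 and M2. No LO library fell as low as any HI library, also under both scalings, and the log2 difference was 0.29 (95% interval 0.028 to 0.55, adjusted p = 0.190). Tkt, transketolase, had 215 ± 37.6 in LO and 183 ± 34.8 in HI.

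The oxidative enzymes of this pathway make NADPH. G6pdx, which commits glucose 6-phosphate to it, had 82.4, 75.6, 52.0 and 42.3 FPKM in LO F1, F2, M1 and M2, against 44.1, 48.0, 54.2 and 39.8 in the HI libraries in that order. Both female LO libraries lay above the HI range and both male ones within it (log2 difference 0.39, limma adjusted p = 0.394). Pgls stood at 159 ± 35.1 in LO and 181 ± 30.3 in HI, and Pgd at 43.9 ± 4.54 in LO and 48.2 ± 8.59 in HI. Rpia, the ribose 5-phosphate isomerase, was low throughout, at 1.32 to 5.46 in LO and 2.69 to 4.61 in HI.

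The TCA cycle group held the other called genes, 1 higher and 1 lower in LO among 9. Idh3a (ENSMUSG00000032279) encodes the catalytic alpha subunit of the NAD-dependent isocitrate dehydrogenase. Its FPKM was 71.5, 98.0, 84.1 and 96.4 in LO F1, F2, M1 and M2, against 51.6, 51.1, 55.9 and 43.5 in HI F1, F2, M1 and M2. All LO libraries lay above all HI libraries, with means of 87.5 ± 12.3 in LO and 50.5 ± 5.15 in HI, 1.73-fold higher in LO (log2 difference 0.78, SE 0.17, limma adjusted p = 0.0185). The exact permutation p, two-sided, was 0.0286, and the difference was 0.52 among libraries numbered 1 and 1.03 among those numbered 2. Leaving out LO F2 ended the call at an adjusted p of 0.0647, as did leaving out HI F2 at 0.0515, HI M2 at 0.0507 or both HI M1 and LO M2, the shallowest and the deepest library, at 0.0638.

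The other subunits of this enzyme did not pass. Idh3b had 214 ± 43.6 FPKM in LO and 225 ± 34.9 in HI, and Idh3g 189 ± 18.7 in LO and 217 ± 13.8 in HI (limma adjusted p = 0.854 for Idh3b and 0.429 for Idh3g). Idh3a was the least abundant of the 3 subunits, at 15.5% to 19.8% of their summed FPKM in LO and 8.33% to 11.3% in HI, without overlap. This set was chosen after the values were seen, and its shares carry no test.

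Suclg1 (ENSMUSG00000052738), the alpha subunit of succinyl-CoA ligase, fell in LO cells. Its FPKM was 129, 121, 120.4 and 135 in LO F1, F2, M1 and M2, against 167, 182, 192 and 169 in HI F1, F2, M1 and M2. The groups did not overlap and were narrow, with means of 126 ± 6.997 in LO and 178 ± 11.9 in HI, 1.41-fold higher in HI (log2 difference -0.49, SE 0.13, limma adjusted p = 0.041). The exact permutation p, two-sided, was 0.0286, and the difference was -0.52 among libraries numbered 1 and -0.46 among those numbered 2. This call was near the threshold. It was lost under quantile normalization (adjusted p = 0.0709), with sex as a covariate (adjusted p = 0.0673), without both HI M1 and LO M2 (adjusted p = 0.0901) and when any 1 library other than LO M2 was left out (adjusted p = 0.071 to 0.118). Its partners, the beta subunits Sucla2 and Suclg2, did not pass, with Sucla2 at 66.1 ± 9.92 in LO and 60.5 ± 13.3 in HI and Suclg2 at 9.21 ± 1.76 in LO and 11.9 ± 2.05 in HI. Suclg1 made up 58.1% to 65.4% of the 3 subunits' FPKM in LO and 68.9% to 74.95% in HI, a set also chosen after the values were seen.

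**Figure D4:**
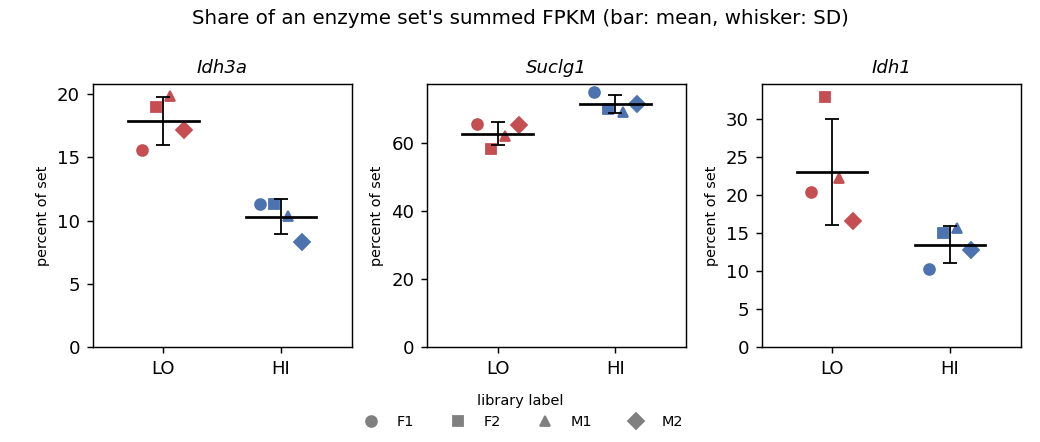
Percent of the summed FPKM of an enzyme's subunits or isozymes in each library, LO left of HI, with mean and SD. The left panel gives Idh3a among Idh3a, Idh3b and Idh3g, the middle panel Suclg1 among Suclg1, Suclg2 and Sucla2, and the right panel Idh1 among Idh1 and Idh2, and LO and HI do not overlap in any of them.

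The remaining TCA cycle genes did not pass. Mdh2, the mitochondrial malate dehydrogenase and the most abundant gene here, had 582, 569.6, 525 and 696 FPKM in LO F1, F2, M1 and M2, against 581, 539, 658 and 493 in the HI libraries in that order. These ranges overlap, and the log2 difference was 0.063 (95% interval -0.25 to 0.38). Mdh1, its cytosolic isozyme, had 436, 418, 423 and 453 in LO and 407, 373, 389 and 326 in HI, in the order F1, F2, M1, M2. Mdh1 did not overlap as deposited or under quantile normalization but did under upper quartile scaling (log2 difference 0.21, limma adjusted p = 0.345). Idh1 and Idh2 are the NADP-dependent isozymes of cytosol and mitochondria. Idh1 had 16.5 ± 5.58 in LO and 11.4 ± 3.50 in HI, and Idh2 had 56.3 ± 17.5 in LO and 72.3 ± 12.1 in HI. The Idh1 share of the pair was 16.6% to 32.9% in LO and 10.4% to 15.8% in HI, without overlap. Cs, which opens the cycle, was even, at 112 ± 4.88 in LO and 105 ± 9.91 in HI. Ogdh, part of the 2-oxoglutarate dehydrogenase complex, stood at 93.4 ± 17.8 in LO and 87.0 ± 10.7 in HI, and Fh1, fumarase, at 80.5 ± 15.7 in LO and 71.9 ± 18.1 in HI.

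The LO libraries were not alike in these genes. In 16 of the 35 (45.7%), Eno1, Aldoa, Pkm, Ldha and Hk1 among them, LO F2 and LO M2 both lay above LO F1 and LO M1, against 23.4% of all genes tested. The reverse order held in 3 of the 35 (8.57%), against 17.4%. LO M2, the deepest library, was the highest LO library in 20 of the 35 (57.1%), against 24.2% of all genes. In HI, libraries numbered 1 lay above those numbered 2 in 11 of the 35 (31.4%), against 23.3%. Among libraries numbered 1, the median log2 difference of the 35 genes, LO minus HI, was 0.040, with 18 positive, and among those numbered 2 it was 0.19, with 20 positive. Medians over all genes tested were -0.085 for number 1 and 0.040 for number 2. What the number stands for is not given in the sources used here.

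Sex made no difference that was called in these genes. Between female and male label means, 0 of the 35 passed (limma), against 0.0178% of all genes tested. An unadjusted p below 0.05 was found in 0 of the 35, against 377 of all 11260 genes tested. For the interaction of sex with reporter level 0 passed, again against 0.0178% of all genes tested. Here too 0 of the 35 had an unadjusted p below 0.05, against 431 of all 11260. With 2 labels per sex, only large differences could be seen.

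A wider list of 63 other genes of these pathways gave 51 tested genes, of which Tktl1 was called higher, Eno3 and Me2 fell and 48 did not pass. The 3 called genes are 5.88%, against 8.29% of all genes tested, and the median log2 difference was -0.0019. Eno3, the muscle type enolase, had 12.4, 9.11, 15.2 and 17.2 FPKM in LO F1, F2, M1 and M2, against 49.7, 55.4, 55.7 and 42.8 in HI F1, F2, M1 and M2. The groups lay far apart, with 3.78-fold more in HI (log2 difference -1.87, SE 0.23, limma adjusted p = 0.00112). Eno3 made up 0.647% to 2.002% of enolase FPKM in LO and 3.29% to 3.82% in HI, so Eno1 stayed the main enolase in both.

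Tktl1, a transketolase-like gene, was listed at 14.8, 16.0, 3.68 and 3.29 in LO F1, F2, M1 and M2 and at 0, 0, 0.825 and 0 in HI F1, F2, M1 and M2. Both female LO libraries were higher than both male ones, and all 4 lay above HI. Tktl1 met the filter of 1 FPKM in 4 libraries only through LO, so it had to differ, and its limma result (log2 difference 2.88, adjusted p = 0.00886) supports nothing further. Me2, the mitochondrial NAD-dependent malic enzyme, had 42.0, 51.1, 44.99 and 40.9 in LO and 65.6, 67.8, 101.5 and 77.6 in HI, in the order F1, F2, M1, M2. Its groups did not overlap (log2 difference -0.77, adjusted p = 0.0298), and the call was lost without any 1 of LO F1, LO M1, LO M2, HI F2, HI M1 or HI M2 (adjusted p = 0.0528 to 0.0732).

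**Figure D5:**
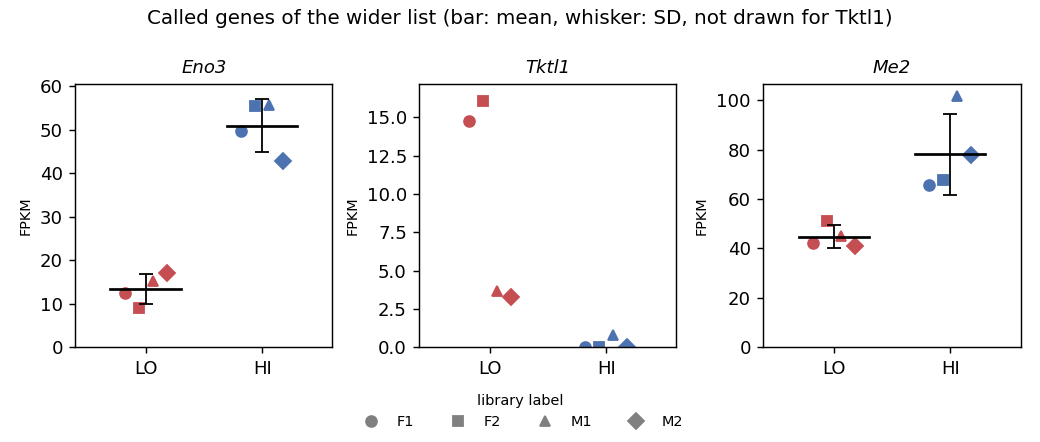
FPKM in each library, LO left of HI, for the 3 called genes of the wider list, with mean and SD for Eno3 and Me2. Eno3 lies at 9.11 to 17.2 in LO against 42.8 to 55.7 in HI, Tktl1 is above 3 FPKM in LO libraries alone, and Me2 is lower in all 4 LO libraries.

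Others of the wider list did not pass. The glucose transporter Slc2a3 had a log2 difference of 0.95 (limma adjusted p = 0.0569). It was at 71.998 to 108 FPKM in LO libraries and at 35.3 to 42.6 in HI libraries other than HI M2, which had 78.3. Slc16a1, a lactate carrier, was at 5.93 ± 1.46 in LO and 7.81 ± 0.964 in HI. The kinase Pdk2 stood at 16.0 ± 4.86 in LO and 29.5 ± 10.2 in HI (adjusted p = 0.181), and Pdhx, a structural part of the same complex, at 12.7 ± 6.24 in LO and 17.2 ± 7.52 in HI. Aldoc, the brain type aldolase, had 24.8 ± 11.4 in LO and 12.8 ± 7.59 in HI, and Rbks, ribokinase, 22.9 ± 4.66 in LO and 11.6 ± 6.98 in HI (adjusted p = 0.262 for Aldoc and 0.146 for Rbks). Sdha, the flavoprotein of succinate dehydrogenase, was at 547 ± 165 in LO and 766 ± 42.1 in HI (adjusted p = 0.158).

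Hif1a and Myc encode transcription factors known to act on glycolytic genes, and were named after their values were seen. Hif1a rose, at 130.1 ± 22.8 FPKM in LO and 61.3 ± 10.8 in HI (log2 difference 1.07, limma adjusted p = 0.00804). Myc fell, at 29.5 ± 4.09 in LO and 110.1 ± 19.9 in HI (log2 difference -1.86, adjusted p = 0.000485). Their part in the levels of the enzymes was not tested.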

How the data were processed

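The SmartSeq2 method gave the libraries, per the labels' protocols. The deposited table holds 1 FPKM value per gene model and library, which the authors made with Cuffnorm, going by the name of the deposited table. The submitters' processing notes list FastQC, cutadapt and HISAT2, with NCBIM37 and mm9 as builds. Neither scaling method, annotation nor use of strand is stated, and read totals are unknown. The series design text concerns another, single-cell experiment.

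Groups come from the titles. Labels do not say whether libraries came from separate mice, so p-values reflect library spread, which may be technical. Symbols were matched by Ensembl ID to GENCODE M21 (31840 of 36811 IDs, and all 170 list entries), and no coordinates were converted. A gene was tested if 4 or more libraries reached 1 FPKM. The fit used limma 3.58.1 (R 4.3.3) on log2 of FPKM plus a pseudocount of 1, with a trend in the prior variance, and adjusted p by Benjamini-Hochberg with a threshold of 0.05. This scale understates changes of low genes, and folds are ratios of mean FPKM. Pseudogene models were matched with blastn 2.17.0. The fit was tested on simulated data, with changes larger than those of Tpi1, Idh3a and Suclg1. Changes of their size were not simulated.

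The enzymes and gene lists were chosen with earlier results of these data known. Full values are given for called genes, genes without overlap and the most abundant gene of each branch, and of the wider list for called genes and up to 2 with the smallest p per group. Any further gene was picked with its values in view.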

Additional observations from a re-analysis of the deposited data

Results flagged for a closer look

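In 76 groups of 4 libraries (35 enzymes and 3 wider genes), a single library stood far from the other 3 in 8. Chance gives about 1 in 20 for a group taken alone. These groups share the same libraries, and Tktl1 in HI is near the floor, so the count says nothing about an excess. LO M2, the deepest library, was the one apart in 4. It had 144 FPKM of Tpi1, against 130.2 to 132 in the other LO libraries, 19.0 of Pgam1, against 15.2 to 15.4, 82.4 of Idh2, against 46.0 to 49.7, and, as the lowest, 84.9 of Mpc2, against 113 to 118. LO M1 was lowest for Taldo1, at 433 against 468 to 474. In HI cells, HI F2 was lowest for Gpi1, at 303 against 341 to 342, HI F1 highest for Pdha1, at 95.7 against 87.6 to 88.1, and HI M1 was the only library above 0 for Tktl1, at 0.825. The part of depth in these values was not tested.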

How the results depend on the processing

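The calls rested on few libraries. Against 3 calls (2 higher, 1 lower), leaving out single libraries gave 1 to 3 calls, 1 to 2 higher and 0 to 1 lower, and without HI M2 the calls were Tpi1 and Pdk1. With the label as a replicate block only Tpi1 was called (1 higher and 0 lower), with Idh3a at an adjusted p of 0.0543 and Suclg1 at 0.0932 (limma), and over all genes 771 in place of 934. Same-labelled LO and HI libraries had correlations of 0.015 to 0.113 in their deviations, and differently labelled ones -0.0995 to 0.058. LO F2 and HI F2 correlated best with another label, and the other libraries with their own. The sources used here do not say whether same-labelled libraries share an animal. The main fit did not take the labels as pairs, and its Idh3a and Suclg1 calls rest on that choice. Without the shallowest and the deepest library (HI M1 and LO M2) Tpi1 alone was called, again 1 higher and 0 lower, and 0 were lower under quantile normalization or with sex as a covariate. Leaving out HI M2 gave 11 enzymes without overlap (31.4%, against 19.5% of all genes tested), and any other single library gave 6 to 7. For those others the share over all genes was not worked out. Wider calls numbered 2 to 3, those over all genes 642 to 1032, and sex and its interaction called 0 in each setting. The wider calls were not always the same genes, since they still numbered 3 without LO M2 and without HI M2, where Me2 was lost. Library number as a covariate and pseudogene values added, both chosen after the data were seen, left 3 called. Small differences turned sign: without both of those libraries Pfkm (-0.20), Pfkfb3 (0.13), Pgls (0.015) and Ogdh (-0.094), under quantile normalization Aldoa (0.053), and in the range over single libraries left out Pfkm (-0.11 to 0.27), Pfkfb3 (-0.34 to 0.15), Aldoa (-0.20 to 0.0043), Pdha1 (-0.16 to 0.047), Rpia (-0.44 to 0.051), Ogdh (-0.027 to 0.18) and Mdh2 (-0.016 to 0.14). Depth is known only in relative terms.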
